A study of Mus musculus with 2 samples.

Results

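The insulin-like growth factor (IGF) genes were examined in mouse spleen as a set of 10: the ligands Igf1 and Igf2, the receptors Igf1r and Igf2r, and the binding proteins Igfbp2 to Igfbp7. They were taken from 2 one-colour Agilent microarrays by matching each non-control probe's accession to these 10 genes, of 20655 genes that had a named probe. The set was proposed from differences already seen on these arrays, so the values below describe it and are not a test of it. All 10 genes had a probe, 14 probes on 23 spots in all, and 9 genes with 13 probes were well above background on both arrays by the scanner software's own call.

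One array was hybridised with male spleen RNA labelled Loxl3 wild-type and the other with male spleen RNA labelled Loxl3 knock-out. The donors were healthy mice whose spleens were taken fresh, with no treatment named; the labels state neither strain, age, the kind of Loxl3 allele nor pooling of animals. Loxl3 encodes a lysyl oxidase-like enzyme, and the comparison addresses what differs in the spleen with its genotype. There was 1 array per group, so no difference has a replicate check, no p-value was computed and every value describes these 2 arrays.

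Insulin-like growth factors are secreted peptides related to insulin that promote growth and survival through the receptor tyrosine kinase Igf1r, which signals through insulin receptor substrates, PI3 kinase and Akt. Most of the peptide outside cells is held by binding proteins, which store it, carry it or keep it from the receptor until proteases cut them. Igf2r has no kinase: it takes up Igf2 for degradation and sorts lysosomal enzymes that carry mannose 6-phosphate. Stromal cells, endothelial cells and macrophages are among the sources of these proteins in many tissues.

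Of the 6 binding protein genes, 5 were higher on the knockout-labelled array after scaling and 1 was lower. Both receptor genes were below their wild-type level. The 4 Igf1 probes were 1.03 to 1.33 times theirs, a range that also holds Igfbp5. Igfbp4 was 3.11 times and Igfbp7 2.58 times the wild-type level after scaling, followed by Igfbp2 (1.84), Igfbp3 (1.62) and Igfbp5 (1.29). Igfbp6 (0.867), Igf2r (0.797) and Igf1r (0.786) were below it. Of the 9 measured members, 2 passed 2-fold upwards and 0 downwards. Among all 13714 measured genes the shares were 2.57% upwards and 2.26% downwards. Since the members were chosen from this same contrast, nothing is read from that comparison.

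Every difference is given on the log2 scale, with the wild-type value subtracted from the knockout-labelled one after each array was scaled to its 75th percentile (signals of 974.5 and 1400.0), a shift of 0.52. Leaving out that scaling adds the shift to every difference, so that any value between −0.52 and 0 then changes sign. A gene with several probes is represented by its brightest. The error after ± is the scanner software's own error of a spot, carried to the log2 difference; it holds no variation between animals. The median over all measured genes was −0.09, and 40.8% of them were above 0.

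The 250 bases before the annotated start are shown for Igfbp4, Igfbp7 and Igfbp2, the members with the largest differences, and for Igfbp6, the binding protein below 0, since nothing in the deposited files gives the probes' own sequence. They come from RefSeq on GRCm38.p6, are written 5′ to 3′ on the gene's strand and end at the base before the start. Where RefSeq listed several starts, the most upstream was used. Capitals mark matches to 4 motifs searched on both strands, none of which overlapped another. The core promoter element called TATA box was searched as TATAAA. The element bound by Sp1-type factors, called GC box, was searched as GGGCGG. The paired element bound by STAT factors was searched as TTCNNNGAA. The E-box, bound by helix-loop-helix factors, was searched as CACGTG. The regions are chr11:99040994-99041243, plus strand; chr5:77408046-77408295, minus strand; chr1:72824230-72824479, plus strand; and chr15:102143936-102144185, plus strand.
Igfbp4: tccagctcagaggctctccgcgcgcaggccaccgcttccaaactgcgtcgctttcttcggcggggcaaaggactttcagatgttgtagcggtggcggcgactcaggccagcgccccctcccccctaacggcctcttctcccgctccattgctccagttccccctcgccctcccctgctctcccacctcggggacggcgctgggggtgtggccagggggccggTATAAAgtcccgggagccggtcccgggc
Igfbp7: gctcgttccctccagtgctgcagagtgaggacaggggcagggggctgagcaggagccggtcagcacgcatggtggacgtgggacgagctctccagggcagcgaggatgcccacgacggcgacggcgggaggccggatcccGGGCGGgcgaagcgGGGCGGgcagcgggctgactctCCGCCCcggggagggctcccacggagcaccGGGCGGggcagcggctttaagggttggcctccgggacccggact
Igfbp2: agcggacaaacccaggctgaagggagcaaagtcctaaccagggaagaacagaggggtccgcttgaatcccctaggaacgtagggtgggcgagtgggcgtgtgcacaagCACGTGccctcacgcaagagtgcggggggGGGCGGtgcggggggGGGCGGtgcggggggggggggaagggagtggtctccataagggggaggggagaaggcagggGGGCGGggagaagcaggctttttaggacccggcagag
Igfbp6: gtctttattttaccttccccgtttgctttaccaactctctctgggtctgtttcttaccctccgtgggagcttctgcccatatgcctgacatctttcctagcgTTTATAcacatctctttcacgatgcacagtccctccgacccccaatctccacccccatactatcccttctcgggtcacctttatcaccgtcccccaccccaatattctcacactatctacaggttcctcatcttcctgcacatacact
Igfbp4 held a TATA box on its own strand that begins at position −28, counted with −1 as the base before the start, and no GC box. Igfbp7 held 4 GC boxes and Igfbp2 held 3 GC boxes and 1 E-box, neither with a TATA box. Igfbp6 held the TATA box letters once, on the other strand at −148. GC content was 69.2% in Igfbp4, 74.0% in Igfbp7 and 67.2% in Igfbp2, against 49.6% in Igfbp6. The median was 52.4% over 32851 promoter windows of this length. Igf1r and Igf2r, which were below 0 after scaling, had 77.6% and 69.2%. Over all 10 members, 4 windows held a GC box, 2 a TATA box, 2 an E-box and none (0 of 10) a STAT site. Among all windows 32.7% held the GC box, 12.4% the TATA box, 6.02% the E-box and 7.02% the STAT site. A match is a description of the letters only, and its absence says nothing of a factor.

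**Figure D1:**
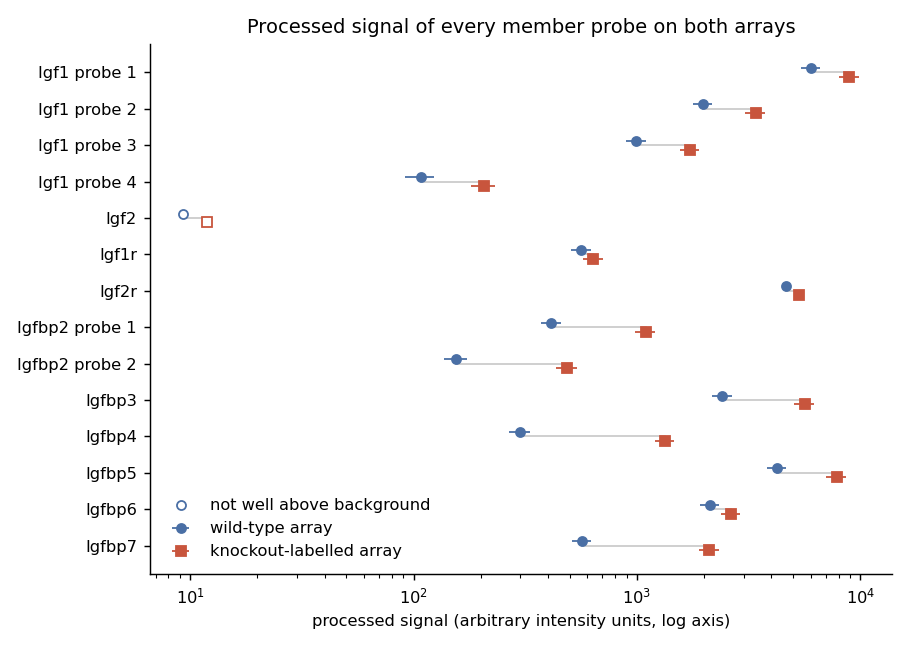
Processed signal of each of the 14 member probes (rows) on the wild-type array (blue circles) and the knockout-labelled array (red squares), before scaling, on a log axis in intensity units. Bars are the scanner software's error, and open symbols mark the Igf2 probe, not well above background; the widest gap between the arrays is that of Igfbp4, 299 against 1336.

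Igfbp4 is a secreted inhibitor of IGF action, released from its ligand when the metalloprotease Pappa cuts it. Its probe read 299 ± 31.7 in wild-type spleen and 1336 ± 134 in the spleen labelled knock-out. The signals differed 4.47-fold as scanned, and the log2 difference after scaling was 1.64 ± 0.21. Of all measured genes, 111 had a larger difference.

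Igfbp7 is a more distant relative that binds IGFs weakly and is deposited around blood vessels. The Igfbp7 probe read 568 ± 57.6 in wild-type spleen and 2109 ± 211 in the other. The log2 difference was 1.37 ± 0.21, and 174 measured genes had a larger one. Igfbp4 and Igfbp7 are each measured by 1 spot of 1 probe, so neither has a second probe to compare with.

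Igfbp2, which binds Igf2 with preference and carries an integrin-binding motif, had 2 probes. The brighter gave 414 and 1093 on the wild-type and knockout-labelled arrays, a log2 difference of 0.88 ± 0.21. The dimmer gave 155 and 487, a log2 difference of 1.13 ± 0.23. Both probes were higher on the knockout-labelled array, and they fell on opposite sides of the 2-fold line, which lay within the error of each. Taking each gene by the median of its probes above background put Igfbp2 past 2-fold too, 3 members in all.

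Igfbp3, the main IGF carrier of blood serum, was the next in order. Its probe read 2414 ± 242 in wild-type spleen and 5631 ± 563 in the other, a log2 difference of 0.70 ± 0.20. Igfbp5, a binding protein that attaches to extracellular matrix, had 4235 ± 424 and 7837 ± 784, a log2 difference of 0.37 ± 0.20. Igfbp6, which prefers Igf2, had 2119 ± 212 and 2638 ± 264. Its log2 difference was −0.21 ± 0.20 and turned to 0.32 without scaling, so its direction is not settled.

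Ordered by difference, the binding proteins ran Igfbp4, Igfbp7, Igfbp2, Igfbp3, Igfbp5, Igfbp6. Igfbp4 and Igfbp7 differed by less than the sum of their errors, as did Igfbp2 and Igfbp3, and Igfbp3 and Igfbp5. Igfbp7 and Igfbp2 differed by more than that sum, as did Igfbp5 and Igfbp6. The median of the 6 was 0.79, with 5 above 0 and 1 below.

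**Figure D2:**
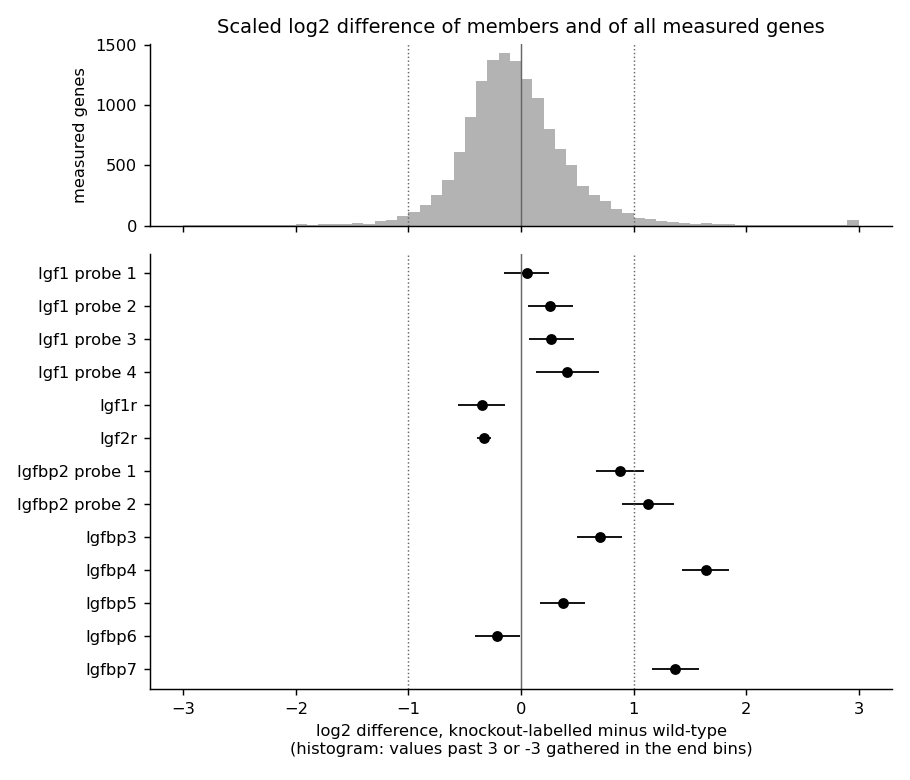
Upper panel: number of measured genes by scaled log2 difference (knockout-labelled minus wild-type). Lower panel: the same difference for each of the 13 member probes above background, with the scanner software's error as bars; dotted lines mark 2-fold, passed by Igfbp4 (1.64), Igfbp7 (1.37) and the dimmer Igfbp2 probe (1.13).

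Igf1, the growth hormone-regulated ligand that is also made locally in tissues, had 4 probes of the same accession. The brightest read 6029 ± 603 in wild-type spleen and 8937 ± 894 in the other, a log2 difference of 0.05 ± 0.20. The others gave 1977 and 3397 (0.26 ± 0.20), 995 and 1727 (0.27 ± 0.20), and 108 and 206 (0.41 ± 0.28). All 4 were above 0, each by less than 2 of its errors, and none reached 2-fold. With the arrays scaled on their medians the brightest probe was at −0.05, so no direction is given for Igf1.

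Igf2, an imprinted ligand of fetal growth that is silent in most mouse tissues after birth, was not well above background. Its single probe read 9.33 in wild-type spleen and 11.9 in the other. Negative control spots averaged 11.5 and 14.9 on these arrays, so no fold is given.

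The genes of both receptors were slightly lower after scaling. Igf1r had signals of 563 ± 57.8 and 636 ± 65.6 on the wild-type and knockout-labelled arrays, a log2 difference of −0.35 ± 0.21. Igf2r was printed 10 times on each array, which makes it the only member with repeated spots. Its wild-type signals ran from 3739 through a median of 4314 to 5922, and its knockout-labelled signals from 4528 through 5046 to 6408. The 10 spot-by-spot log2 differences averaged −0.33 with an SD of 0.0925 (n = 10 spots of 1 array pair), from −0.46 to −0.16. All 10 were below 0. Without scaling Igf1r was at 0.18 and Igf2r at 0.20, so the sign of both rests on the scaling.

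The repeated Igf2r spots also differed in signal along the rows of the array. The 4 spots in rows 66 to 215 were brighter than the other 6 (rows 275 to 372) on both arrays. On the wild-type array the former lay between 4978 and 5922 and the latter between 3739 and 4322. On the knockout-labelled array they lay between 5804 and 6408, and between 4528 and 5052. The coefficient of variation over spots was 17.6% and 12.6%, and the difference between arrays varied less. The rows were grouped after the values were seen, and an effect of position was not tested. Over 268 probes printed 10 times and above background, the SD of the spot differences had a median of 0.112 and a 90th percentile of 0.261. With the main scaling, Igf1r, Igf2r, Igfbp2, Igfbp3, Igfbp4, Igfbp5 and Igfbp7 differed by more than that 90th percentile. Igfbp6 and the brightest Igf1 probe differed by less. It is a percentile of SDs and sets no limit for a single difference. Igf1r (−0.20) and Igf2r (−0.18) fell below it in size with the scaling percentile taken over the probes that both arrays had above background. This spread between spots says nothing of the spread between mice.

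**Figure D3:**
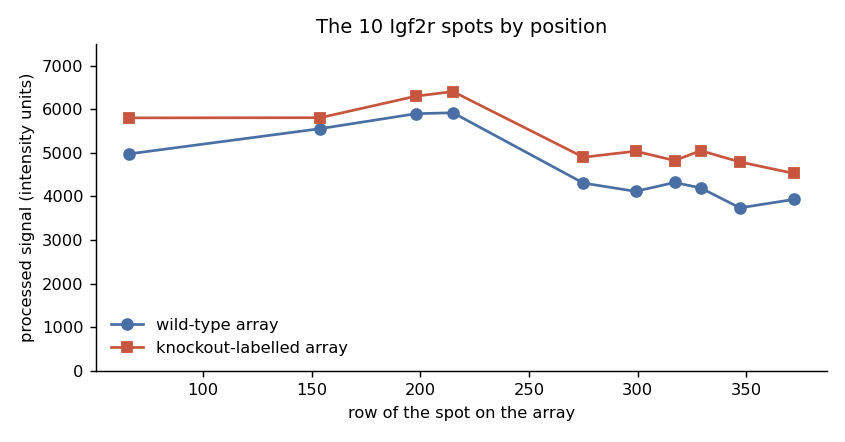
Processed signal (intensity units, axis from 0) of the 10 Igf2r spots against the row of the spot, on the wild-type array (blue circles) and the knockout-labelled array (red squares). Both arrays are brighter in rows 66 to 215, and every spot is brighter on the knockout-labelled array before scaling; after it, all 10 differences are below 0.

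Among other proteins that bind IGFs or resemble the binding proteins, 9 of 15 genes were measured. Past 2-fold were 0 upwards and 1 downwards, and the median was 0.07. Ccn5, a matricellular gene of the CCN family, was at −1.09 ± 0.32, with signals of 117 and 78.8, and past 2-fold in 8 of 11 other settings. Ccn2, the connective tissue growth factor gene, was at −0.52 but at 0.00 without scaling. Crim1, a transmembrane protein gene with an IGF-binding-protein-like domain, was at 0.87 ± 0.29, and the serine protease gene Htra3 at 0.45. Igfbp1 gave 14.1 and 28.9 and was not well above background, and neither was Igfals, whose product holds Igfbp3 and Igfbp5 in the serum complex. No Igfbp1 or Igfals level was therefore measured here, while Igfbp3 and Igfbp5 were bright.

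Among genes listed as proteases that release IGFs from these proteins, or as inhibitors of such proteases, Pappa and Adam12 were the lowest. Htra1 (0.27 ± 0.20) and the serine protease gene Htra3 (0.45 ± 0.26), counted among the binding partners above, were above 0. Pappa, whose product cuts Igfbp4, read 593 in wild-type spleen and 455 in the other, a log2 difference of −0.91 ± 0.21. Adam12, a membrane metalloprotease that cuts Igfbp3 and Igfbp5, had 160 and 115, a log2 difference of −1.01 ± 0.30. Stc2, which encodes an inhibitor of Pappa, was at 0.11 ± 0.25 (−0.05 with normexp background correction), and the metalloprotease inhibitor gene Timp3 at 0.11 ± 0.20. Of 10 genes 7 were measured, 1 of them 2-fold lower, with a median of 0.06. Adam12 was past 2-fold in 8 of the 11 other settings, and Pappa in 1.

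Within the insulin and relaxin family 6 of 13 genes were measured, with a median of 0.40. The relaxin-3 receptor gene Rxfp3 was the 1 member at least 2-fold higher, at 1.18 ± 0.21 with signals of 249 and 811. Ins2 was at 0.41 ± 0.21, the insulin receptor-related gene Insrr at 0.01 ± 0.24 and the relaxin-like gene Insl6 at −0.58 ± 0.21. Ins1 cleared background in the knockout-labelled spleen alone, with signals of 29.9 in wild-type spleen and 80.2 in the other. Its log2 difference was 0.90 ± 0.54. A wild-type signal as high as 61.6, that of Ren1, was not called above background, so no least fold is given for Ins1.

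In the growth hormone axis, which drives Igf1 in liver, none of 10 measured genes (0 of 10) reached 2-fold in either direction and the median was −0.33. Stat5a, the transcription factor gene downstream of the receptor, was at −0.91 ± 0.20, with signals of 4766 and 3652. Socs1, a feedback inhibitor gene of cytokine signalling, was at −0.85 ± 0.20. The growth hormone receptor gene Ghr was at 0.35 ± 0.21, and Socs2 was 0.999 times the wild-type level.

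Downstream of Igf1r, 40 of 44 genes were measured and their median was 0.12. Taking each gene by its brightest probe, Pik3r1, the regulatory subunit gene of PI3 kinase, was the 1 gene at least 2-fold higher. It was at 1.07 ± 0.21 with signals of 302 and 910, and past 2-fold in 9 of 11 other settings. The catalytic subunit gene Pik3cd was at 0.80 ± 0.20, with its other probes from 0.49 to 1.23. At the other end were the S6 kinase gene Rps6kb1 and the mTOR inhibitor gene Tsc1, both at −0.56. The other Rps6kb1 probes lay between −0.07 and 0.46, so that gene has no settled direction. Dimmer probes of Rheb (1.34), Grb2 (1.19) and Gsk3b (up to 1.23) also passed 2-fold, while the brightest were at −0.27, −0.10 and 0.12. The lowest of the dimmer probes in this list was at −0.29, for Akt2. By brightest probe, 23 genes were above 0, 17 below and 0 at least 2-fold lower. Of all measured genes 40.8% were above 0.

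Imprinted growth genes and Igf2 mRNA-binding protein genes, of which 11 of 19 were measured, had a median of 0.07 and 0 past 2-fold. Plagl1, a zinc finger gene known to regulate Igf2, was at 0.86 ± 0.21 with its brightest probe, and at −0.35 and 1.18 with others. Cdkn1c was at 0.44, Mest at −0.49 and Impact at −0.79, the last with another probe at 0.33. The genes listed as partners of Igf2r or for lysosomal sorting, 11 of 13 measured, had a median of −0.16 and 0 past 2-fold. Tgfb1, whose latent product Igf2r can bind, was at 0.98, with signals of 404 and 1141. M6pr, the other mannose 6-phosphate receptor gene, was at 0.22. Gnptg, which helps to add that mark, was at −0.49 (other probe −1.76), and the lysosomal protease gene Ctsd at −0.41 (other probe 0.60).

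**Figure D4:**
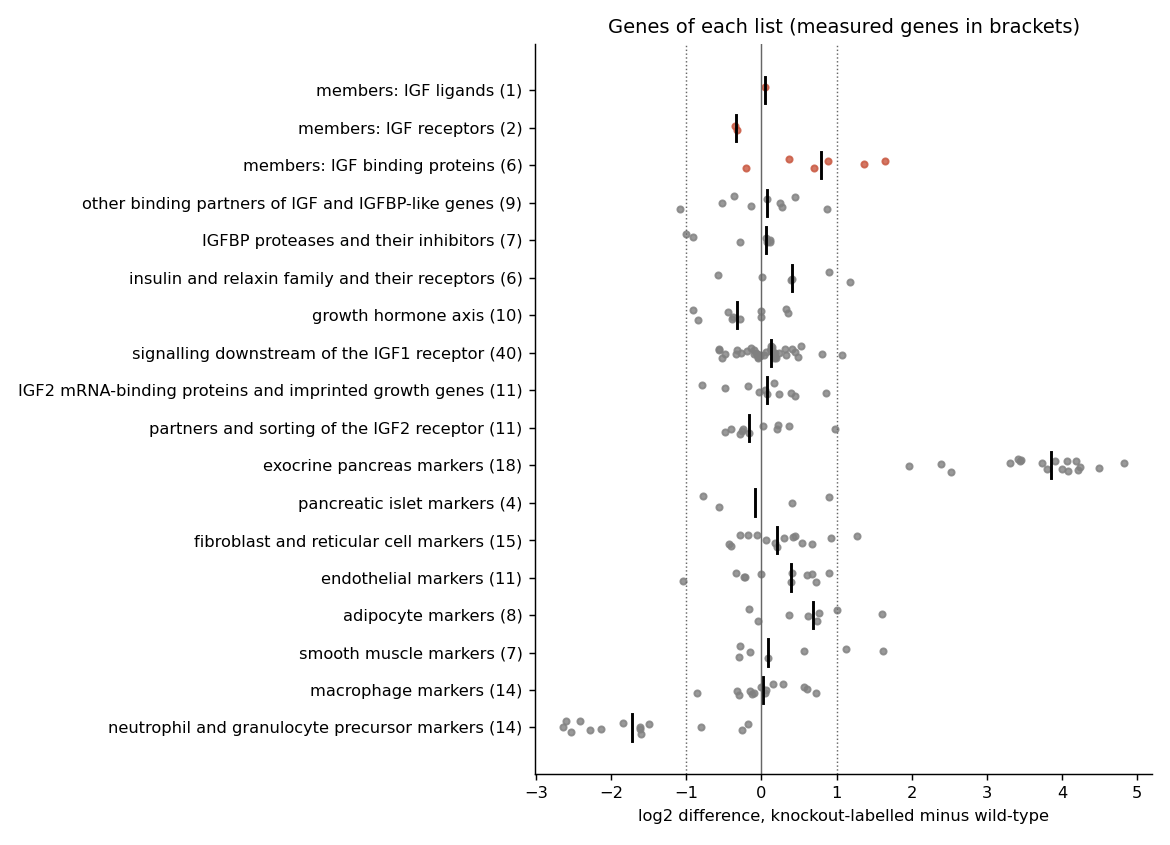
Scaled log2 difference (knockout-labelled minus wild-type) of each measured gene, 1 point per gene, by list; black bars are list medians, red points the IGF members, dotted lines 2-fold. The 6 binding proteins have a median of 0.79 and the receptors lie below 0; exocrine pancreas genes (median 3.85) and neutrophil genes (median −1.73) lie far apart from the other lists drawn.

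On the chromosomes, 2 pairs of members or relatives stand side by side in the mouse gene order when only genes with a named probe are counted. A neighbour here is the nearest such gene, at whatever distance. Igfbp2 and Igfbp5 are neighbours on chromosome 1 and were at 0.88 and 0.37, while Rpl37a on the other side of Igfbp2 was at −0.63. Igfbp3 lies next to Igfbp1 on chromosome 11, and the gene on its other side, Tns3, was at 0.29. Beside Igfbp4, on the same chromosome, the DNA topoisomerase gene Top2a was at −0.21, and at 0.31 without scaling. Beside Igfbp7 on chromosome 5, the polymerase subunit gene Polr2b was at −0.03, and Adgrl3 cleared background only in the knockout-labelled spleen, with a signal of 58.0 that was too close to the floor for a fold. Airn, the non-coding RNA that silences the paternal Igf2r allele, had signals of 490 and 666 and was at −0.08, a sign that turned with the scaling (0.07 with the percentile taken over the probes that both arrays had above background, 0.44 without scaling). For the 2-fold members, the only neighbour above background on both arrays was Top2a for Igfbp4 and Polr2b for Igfbp7. Neither reached 2-fold, which 4.83% of all measured genes did in either direction, so nothing is read from these 2 genes. Tns4, the other neighbour of Igfbp4, was not measured.

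Genes of several other cell types also differed between these arrays, and in bulk spleen RNA fewer cells of a type and less RNA per cell cannot be told apart. Of 12 endothelial markers 11 were measured, 6 above 0 and 5 below, from Vwf at −1.05 to Eng at 0.90. Their median was 0.39 and their summed signal 31393 in wild-type spleen and 48317 in the other, 1.07-fold after scaling; Emcn was not above background. Of 16 fibroblast and reticular cell markers 15 were measured, from Pdgfrb at −0.43 to Bgn at 1.27. Their median was 0.20 and their summed signal 111756 and 176548, 1.1-fold after scaling. Of 9 adipocyte markers 8 were measured, from Pparg at −0.17 to Lpl at 1.61, the latter and Cfd (1.01) past 2-fold. Their median was 0.68 and their summed signal 12546 and 28941, 1.61-fold after scaling, with Lep not above background.

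Exocrine pancreas genes had the widest gap of the lists examined. All 18 markers exceeded 2-fold in the knockout-labelled spleen, from Ctrl at 1.96 to Reg1 at 4.83, and their summed signal was 20278 in wild-type spleen and 275478 in the other, 9.46-fold after scaling. Of 13 islet markers 4 were measured, with a median of −0.08. They were Ins2 (0.41) and Ins1 (0.90), both also in the insulin list above, Pcsk2 (−0.57) and Sst (−0.78). Ins1 and Sst were above background on 1 array alone. The other 9, among them Gcg and Iapp, were not above background. Neutrophil and platelet markers lay the other way, with medians of −1.73 over 14 genes and −1.61 over 9. Macrophage markers had a median of 0.02 over 14 genes and a summed signal 0.937 times the wild-type level after scaling. The part of pancreas, fat, stroma, vessels or blood cells in the IGF values was not tested.

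The spleen label and the arrays were checked briefly. All 9 B cell markers and 9 of 10 T cell markers, as well as the red pulp macrophage gene Spic, were measured on both arrays. The Loxl3 probe gave 117 and 125, a log2 difference of −0.43 ± 0.29 that was 0.09 without scaling. No source used here says whether the deletion covers this probe, so the sample is called knockout-labelled. The arrays had 54.7% and 56.8% of probes well above background and 0 saturated spots.

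The split of all genes at 2-fold depended on the scaling, with 53.2% of them higher in the main calculation, 41.3% with array medians, 70.9% with the percentile taken over the probes that both arrays had above background and 93.5% without scaling. The all-gene median shifted by −0.10, 0.14 and 0.52 under these. Relative to the median of all genes, Igfbp4 stayed 1.56 to 1.77 above it and Igfbp7 1.41 to 1.5 over the main and 11 other settings. On the same footing Igfbp2 lay 0.87 to 1.05 above it, Igfbp3 0.75 to 0.88, Igfbp5 0.42 to 0.57 and Igf1 0.14 to 0.32. Igfbp6 lay between −0.16 and −0.02, Igf2r between −0.28 and −0.14, and Igf1r between −0.37 and −0.16. A uniform scaling leaves these relative values as they are by construction, and the deposited table repeats quantile normalization, so those settings are no separate check of them.

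**Figure D5:**
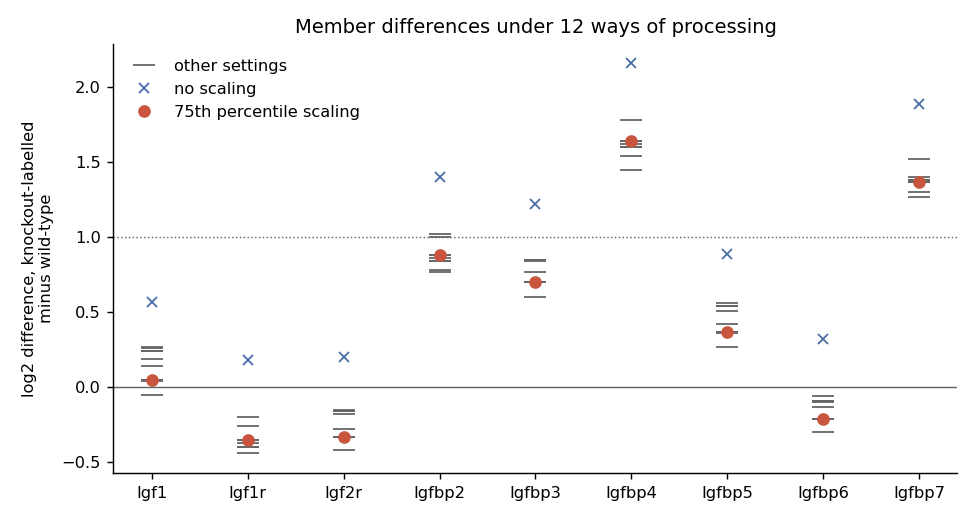
Log2 difference (knockout-labelled minus wild-type) of the 9 measured members with 75th percentile scaling (red), without scaling (blue crosses) and under 10 other settings (grey ticks); the dotted line is 2-fold. Igfbp4 and Igfbp7 lie above that line in all 12, and Igf1r, Igf2r and Igfbp6 are above 0 only without scaling.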

How the data were processed

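Spleen RNA labelled with Cy3 was measured on 1 array per group, grouped by the genotype in the labels. Per the file headers, the values are linear spot intensity as written by Agilent Feature Extraction 11.0.1.1 (protocol GE1_1100_Jul11, build mm9), background-corrected but not normalized between arrays. The table of values deposited by the authors holds log2 numbers. Its columns share every quantile (median 6.71), and its differences matched quantile-normalized log2 processed signals, a step read from the values. It served as an alternative.

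Of 43020 non-control spots, those with a feature outlier flag (110 and 132) were left out, log2 processed signals of a probe's spots were averaged (39420 probes), and each array's 75th percentile was subtracted. Accessions were matched without versions to RefSeq of GRCm38.p6, which named 27226 probes. Only names, gene order and promoter sequence come from that assembly. A probe counted as above background where most of its spots were. A gene above background on at least 1 array was measured (13714 genes), by its brightest probe.

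With 0 residual degrees of freedom no test was run, and the number of arrays limits the precision. The members and lists were chosen with earlier results of these data known. Named are all members, list genes at 2-fold, the 2 highest and 2 lowest of each pathway list among its genes above background on both arrays, and the highest and lowest of some marker lists, with a few others chosen after their values were seen. Other scalings, background correction, filters and probe rules were tried. Normexp used the median spot signal, since the planned mean signal is not among the columns used here. The planned protein comparison was not made, as no protein sequences were used here. The calculation was tested on simulated data. Python 3.11.15, limma 3.58.1 and statsmodels 0.14.6 were used.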

Additional observations from a re-analysis of the deposited data

How the results depend on the processing

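Over 11 alternatives, the count of members at least 2-fold higher was 2 or 3 except without scaling, where it was 4 (Igfbp2, Igfbp3, Igfbp4 and Igfbp7); the count of those lower was 0 in all. The members' median of 0.37 became 0.89 without scaling. Without scaling, list medians were 0.59 for other binding partners, 0.59 for proteases and inhibitors, 0.92 for the insulin and relaxin family, 0.20 for the growth hormone axis, 0.64 for signalling downstream of Igf1r, 0.59 for imprinted genes and 0.36 for Igf2r partners; this setting keeps the 0.52 shift between the arrays. With no filter on dim probes the protease median was −0.29 and the insulin and relaxin median −0.10, with more genes counted. With the loess trend removed the growth hormone axis was at −0.12; the cause was not tested. The other 98 of 110 such comparisons moved by less than the software's error or, for counts, by at most 1.5 times.

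Of all genes, 352 were higher and 310 lower at 2-fold; these were 1466 and 102 without scaling, 151 and 186 with normexp, and 613 and 699 with no filter. No paired analysis was possible because each group has 1 array. Igfbp4 and Igfbp7 rest on 1 spot each, and signal over background limits Igf2, Igfbp1 and Igfals.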
